A study of Mus musculus with 22 samples.

Results

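The integrated stress response was followed through 10 genes, *Atf4*, *Atf5*, *Ddit3*, *Trib3*, *Asns*, *Psat1*, *Phgdh*, *Mthfd2*, *Fgf21* and *Gdf15*, in brown adipose tissue (BAT) of CPEB2-WT and CPEB2-KO mice. They were taken by name from the 55487 gene identifiers of each count table, and all 10 passed the filter on low counts in both tables. The series holds 22 libraries, 1 per mouse, from C57BL/6 mice labelled male. CPEB2 binds RNA and controls the translation of its targets, and the KO is a deletion in the whole body, not in brown adipocytes alone. The untreated cohort had 5 WT and 5 KO mice of 21 to 25 weeks. These mice were deprived of food for some hours before collection. In the AAV cohort, WT and KO mice were injected with AAV-GFP or with AAV-PRDM16, which made 4 groups of 3, named by genotype and virus (WT + AAV-GFP, for example). They received 20000000000 vector genomes (vg) of adeno-associated virus in 30 µl at 16 weeks, and BAT was taken 9 weeks later, at 25 weeks. AAV-PRDM16 carried a tagged coding sequence of PRDM16, a regulator of brown fat identity, and AAV-GFP, which encodes a fluorescent protein, was the control virus. Every mouse of that cohort thus carried a virus, and the cohorts, whose tables are separate, were fitted apart.

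In the integrated stress response, kinases that sense unfolded protein, amino acid shortage, viral RNA or heme shortage phosphorylate the initiation factor eIF2alpha. General translation falls, while the mRNA of a few factors, ATF4 first among them, is translated more. ATF4, often with C/EBP partners, then switches on genes for amino acid synthesis, further transcription factors and, in many tissues, the hormones FGF21 and GDF15. In brown fat this program is known from mitochondrial and thermogenic stress. ATF4 is controlled largely at translation, so the mRNA levels given here do not measure ATF4 protein.

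ATF4 and C/EBP factors act together at composite elements in the promoters of their targets. The letters TGATGNAA, the core of such an element, were searched on both strands of RefSeq promoter windows (250 bases before to 50 after a start, GRCm38.p6). They occurred in 3 of the 10 genes, and in 1219 (4.51%) of the 27025 genes counted. That count covers genes with a window of full length and leaves out a chromosome that holds none of the 10 genes. The genes were chosen as known members of the pathway, so this share describes them and is no test. The 3 matches are printed to show the element's letters in a synthesis enzyme, a regulator and a hormone gene. Capitals mark the match and lower case letters the 10 bases on each side.
Asns: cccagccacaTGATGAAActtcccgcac
Trib3: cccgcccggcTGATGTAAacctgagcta
Fgf21: cctggacggaTGATGCAAtgggggggtc
The *Asns* stretch is chr6:7693215-7693242 on the minus strand, the strand of the gene, and lies within the span that GENCODE gives to *Asns*. The *Trib3* stretch is chr2:152344029-152344056 on the plus strand, opposite to the gene, and covers its annotated start. The *Fgf21* stretch is chr7:45615612-45615639 on the plus strand, also opposite to the gene, and lies upstream of it. *Psat1*, *Phgdh* and *Mthfd2* had no match in their windows, which says only that these letters are not in those bases.

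Each untreated library held 55320927 to 162721202 counts, and each AAV library 61636889 to 143005309. Levels are given as CPM, counts scaled to the library's total with edgeR's TMM factor. *Cpeb2* itself was at 10.5 to 14.0 CPM in the WT and 4.33 to 5.55 CPM in the KO mice of the AAV cohort. Among untreated mice it was at 7.69 to 14.3 CPM in the libraries labelled WT and 2.10 to 11.7 CPM in those labelled KO, with KO mouse 1 inside the WT range. *Prdm16* was higher in every AAV-PRDM16 library (45.9 to 128 CPM) than in any AAV-GFP library (23.9 to 40.2 CPM). Against their male label, 6 of the 10 untreated libraries held at most 1.17 CPM of Y-linked transcripts and at least 104 CPM of *Xist*. These were 2 of the 5 WT and 4 of the 5 KO libraries, so this property is uneven between the genotypes. WT mouse 4 held 14.0 CPM of *Xist* beside 116 CPM of Y-linked transcripts, and KO mouse 2 held 1.65 beside 77.1 CPM. In WT mice 1 and 2 *Xist* was at 0.0876 and 0.0310 CPM. WT mice 1 and 2 stood apart, at 122 and 128 on the first principal component, where the other untreated libraries lay between -98.9 and 44.5. All 10 brown adipocyte markers were detected in every library, with summed levels of 4264 to 13508 CPM. The 8 skeletal muscle markers summed to between 7.70 and 6195 CPM in the untreated and between 0.421 and 90.7 CPM in the AAV cohort. In bulk tissue, fewer cells of a type and less RNA per cell cannot be told apart. Every replicate is a separate mouse, so p-values measure the spread between these mice.

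*Atf5* and *Atf4* had the highest levels of the 10 genes. Per kilobase of exon, untreated WT BAT held 65.7 ± 19.1 CPM of *Atf5* and 47.6 ± 28.0 CPM of *Atf4* (SD, n = 5), which did not differ beyond their spread. Next came *Asns* at 17.0 ± 5.87 and *Ddit3* at 8.57 ± 4.35 CPM per kilobase. *Phgdh* was at 3.40 ± 2.50 and *Trib3* at 1.62 ± 0.232. The lowest levels were those of *Gdf15*, *Psat1*, *Fgf21* and *Mthfd2*, from 1.08 down to 0.450 CPM per kilobase, and these 4 overlapped. In WT + AAV-GFP mice *Atf5*, *Atf4*, *Asns* and *Ddit3* again headed the order, at 64.8, 23.8, 13.0 and 7.14 CPM per kilobase. *Fgf21* and *Gdf15* closed it there, at 0.184 and 0.120 CPM per kilobase. *Fgf21* had few reads, from 36 to 170 counts in untreated and from 11 to 56 in AAV libraries. *Gdf15* ran from 4 to 1412 counts in untreated and from 0 to 457 in AAV libraries.

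The untreated cohort asks how loss of CPEB2 alone changes BAT. No member differed between untreated KO and WT mice at an adjusted p of 0.05, by edgeR's quasi-likelihood test or by DESeq2, and 0% of the 17869 genes tested did so by edgeR (0.00332% by DESeq2, among genes to which it gave an adjusted p). At an unadjusted p under 0.05 edgeR named 2 members, *Atf5* and *Phgdh*, both higher in KO. Of all genes, 4.99% were higher and 10.9% lower at that level. The fold changes of 9 members were positive and that of *Asns* negative, with a median of 0.54 on the log2 scale against 0.04 for all genes tested. With a term in the fit for whether a library held Y-linked transcripts, edgeR again called 0 members, and 0% of all 17869 genes. The log2 fold changes of the members then ran from -0.66 (*Asns*) to 2.02 (*Gdf15*), with adjusted p from 0.576 to 0.759. Members that share a pathway and a set of libraries do not count as separate observations.

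*Atf5* encodes a bZIP factor of the same family as ATF4 that is tied to mitochondrial stress. It was at 173, 125.003, 120, 160 and 75.96 CPM in WT mice 1 to 5 and at 176, 142, 313, 176 and 270 CPM in KO mice 1 to 5. Of the 5 KO mice, 4 stood above every WT mouse, KO mice 3 and 5 far above and KO mice 1 and 4 just above, and KO mouse 2 lay among the WT mice. The log2 fold change was 0.72 ± 0.30 (SE, adjusted p = 0.305), and an exact permutation test over the mice gave p = 0.0397, two-sided, unadjusted. *Atf5* exons overlap those of *Nup62* and *Il4i1* on the opposite strand, and how strand was handled in counting is not given in the sources used here. *Nup62* averaged 15.9 CPM in these libraries, with a log2 fold change of 0.33 ± 0.20 (SE, adjusted p = 0.385).

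*Phgdh* encodes the first enzyme of serine synthesis from glycolysis. Its level was 3.50, 3.39, 13.6, 16.6 and 5.17 CPM in WT mice 1 to 5 and 12.0, 22.8, 9.58, 18.4 and 26.2 CPM in KO mice 1 to 5. WT mice 1, 2 and 5 were lower than every KO mouse, and WT mice 3 and 4 lay among the KO mice. KO exceeded WT by a log2 fold change of 1.07 ± 0.48 (SE, adjusted p = 0.310, exact permutation p = 0.0714). Under a looser rule of at least 2-fold and an adjusted p of at most 0.5, *Phgdh* was the only member called, at 2.11-fold, where 6.04% of all genes were called as higher. Without WT mice 1 and 2 its log2 fold change was 0.65 (adjusted p = 0.867).

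*Atf4*, the master regulator of the response, was at 52.1, 58.0, 211, 143 and 97.4 CPM in WT mice 1 to 5. In KO mice 1 to 5 it was at 195, 167, 172, 145 and 136 CPM. The KO mice were close together and inside the WT range, whose lowest values were those of WT mice 1 and 2. For *Atf4* the log2 fold change was 0.54 ± 0.36 (SE, adjusted p = 0.424), and 0.15 without these 2 mice. *Ddit3*, which encodes the pro-apoptotic factor CHOP, ran from 8.58 to 27.4 CPM in WT and from 16.2 to 28.5 CPM in KO mice, with a log2 fold change of 0.48 ± 0.31. *Ddit3* overlaps *Mars* on the opposite strand (42.5 CPM, log2 fold change 0.13 ± 0.20). A second identifier with the symbol *Ddit3*, a short locus on the same strand, held at most 1 count in an untreated library. *Trib3*, a pseudokinase induced by ATF4 and CHOP, lay between 2.86 and 3.89 CPM in WT mice. KO mice 1, 3 and 5 had 5.92, 6.51 and 6.24 CPM of *Trib3*, above every WT mouse, while KO mice 2 and 4 had 3.64 and 2.96 CPM. Its log2 fold change was 0.55 ± 0.29 (SE, adjusted p = 0.342).

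*Asns*, asparagine synthetase, was the member with a negative fold change among untreated mice. It ran from 34.9 to 74.0 CPM in WT and from 16.5 to 53.1 CPM in KO mice, with a log2 fold change of -0.26 ± 0.32 (SE, adjusted p = 0.658). *Mthfd2*, the mitochondrial folate enzyme, ran from 1.16 to 2.12 CPM in WT and from 1.14 to 3.54 CPM in KO mice, and both ranges overlapped (log2 fold change 0.34 ± 0.37). *Psat1*, which encodes the second enzyme of serine synthesis, was at 2.36, 2.31, 3.55, 5.87 and 1.78 CPM in WT mice 1 to 5. KO mice 1 to 5 had 7.44, 4.66, 1.21, 2.10 and 3.42 CPM of *Psat1*, so the highest and the lowest value of the cohort were both in KO. Its log2 fold change was 0.25 ± 0.48 (SE, adjusted p = 0.785). KO mouse 1, whose *Cpeb2* lay in the WT range, had the highest *Psat1* and *Mthfd2* of the cohort, and without it the log2 fold changes were -0.16 and 0.02.

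**Figure D1:**
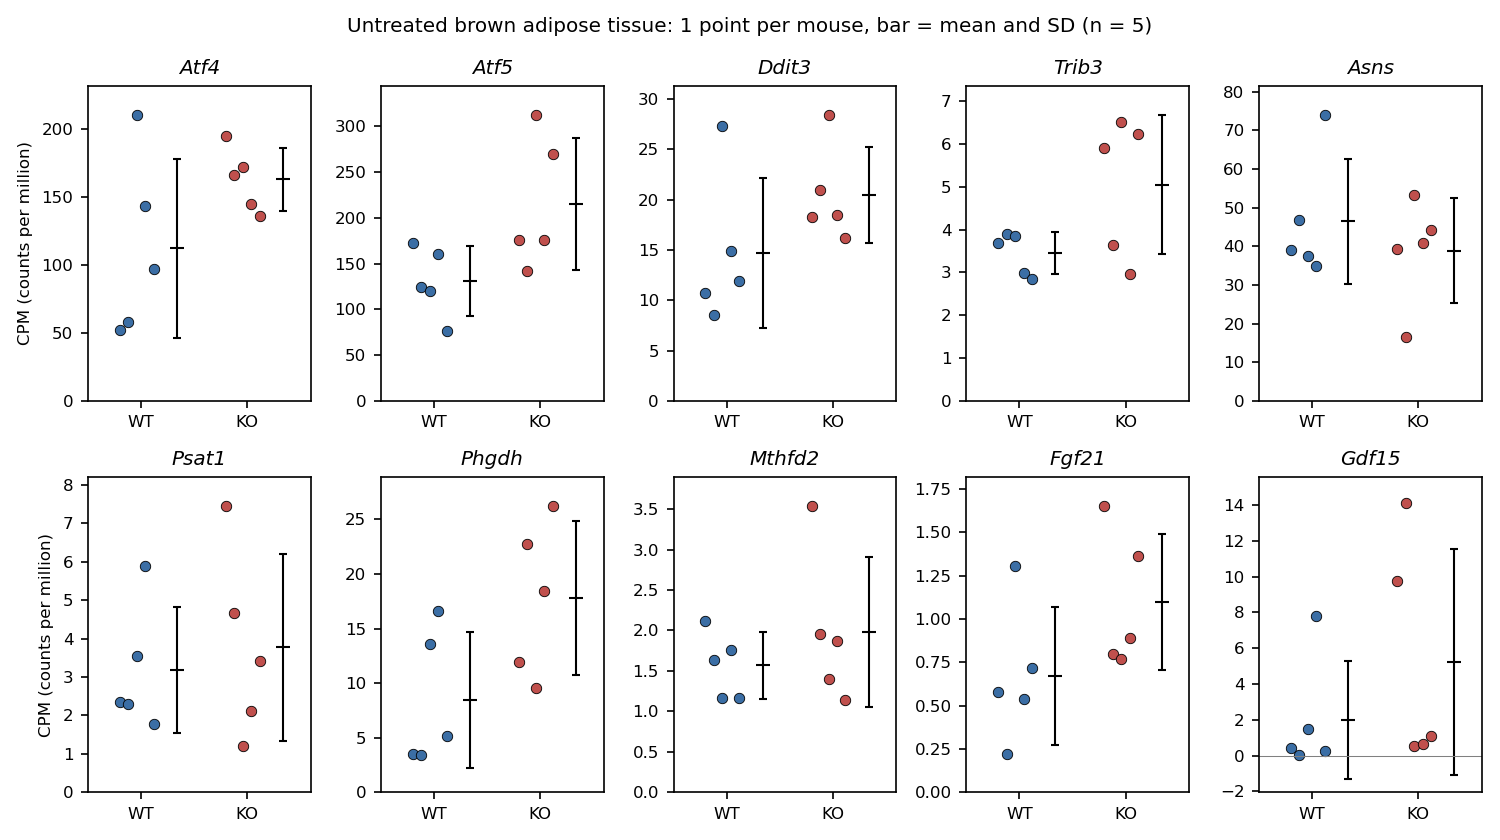
Levels of the 10 genes in untreated BAT, with 1 panel per gene, the group on the horizontal axis (WT in blue, KO in red, 5 mice each) and CPM on the vertical axis. Points are mice, and the bar beside them is the mean with its SD. In each panel the WT and KO mice overlap, and *Psat1* and *Gdf15* are high in a few mice of both groups, with *Gdf15* reaching 7.81 CPM in a WT mouse and 14.1 CPM in a KO mouse.

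*Gdf15* and *Fgf21* are the secreted factors among the members. *Gdf15* encodes a stress hormone that acts on the hindbrain. It was at 0.447, 0.0248, 1.47, 7.81 and 0.259 CPM in WT mice 1 to 5, and at 9.76, 14.1, 0.530, 0.635 and 1.07 CPM in KO mice 1 to 5. WT mouse 4 and KO mice 1 and 2 were far above the other 7 mice. Between genotypes the log2 fold change was 1.39 ± 1.24 (SE, adjusted p = 0.538). These same 3 mice also had the highest macrophage marker sums, 137 CPM in WT mouse 4 and 203 and 141 CPM in KO mice 1 and 2, against at most 72.3 CPM in the others, over 6 markers of which none was at 0. The sum of the 5 white adipocyte markers was likewise highest in these mice, at 207, 254 and 268 CPM, against at most 104 CPM. At most 1 of these 5 markers was at 0 in a library. The sum of the 4 fibroblast markers was also highest in these mice, at 561, 414 and 501 CPM, against at most 325 CPM. With the macrophage marker sum as a covariate, an analysis added after seeing the data, the log2 fold changes of *Gdf15* and *Psat1* were -0.07 and -0.51. These were the members whose sign changed in that fit. It called 0 members and 0% of all 17869 genes by edgeR. *Fgf21*, a hormone that brown fat can release and that raises energy use, ran from 0.224 to 1.31 CPM in WT and from 0.772 to 1.65 CPM in KO mice. Its log2 fold change was 0.71 ± 0.48 (SE, adjusted p = 0.426).

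The AAV cohort asks whether PRDM16 supplied by virus changes WT and KO BAT, and it repeats the genotype comparison in mice that all held Y-linked transcripts. Averaged over both viruses, *Psat1* rose in KO and was the single member called, 1 of 10, where 2.18% of 18899 genes were called. It was at 1.29, 1.55 and 1.67 CPM in WT + AAV-GFP mice and at 0.936, 1.59 and 1.86 CPM in WT + AAV-PRDM16 mice. KO + AAV-GFP mice had 2.92, 2.49 and 3.09 CPM of *Psat1*, and KO + AAV-PRDM16 mice 2.52, 2.19 and 2.54 CPM. Each of the 6 KO mice was higher than each of the 6 WT mice, a separation that 1.13% of all genes showed in this direction. These levels rested on 80 to 445 counts per library. The log2 fold change was 0.82 ± 0.18 (SE), or 1.76-fold, with an adjusted p of 0.0378 by edgeR. An exact permutation of genotype within each virus gave p = 0.005, the smallest its 400 arrangements allow. By DESeq2 the adjusted p was 0.000393, in a fit that called 9.81% of the genes to which it gave one. The call was close to the threshold, and it was lost without any 1 of the 12 libraries except KO + AAV-GFP replicate 1, with adjusted p from 0.0524 to 0.105, while the log2 fold change stayed between 0.70 and 0.92 in all 12 of these fits. They called 0.455% to 3.02% of all genes, with 3.02% in the fit that kept the call.

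Within each virus the same difference did not pass on its own. *Psat1* was 1.89-fold higher in KO under AAV-GFP (log2 fold change 0.92 ± 0.25, SE, adjusted p = 0.295) and 1.65-fold under AAV-PRDM16 (0.72 ± 0.25, adjusted p = 0.239). DESeq2 gave *Psat1* an adjusted p of 0.0277 under AAV-GFP, where it called 1.6% of genes, and of 0.0960 under AAV-PRDM16, where it called 3.26%. By edgeR, 0 members were called in either comparison, where 0.0529% and 0.0476% of all genes were. Groups that did not overlap, with KO higher, were those of *Psat1* and *Fgf21* under AAV-GFP (2 of 10 members, 6.51% of all genes) and of *Psat1* under AAV-PRDM16 (1 of 10, 11.5% of all genes). The difference of genotype effects between the viruses was -0.19 ± 0.35 on the log2 scale for *Psat1* (SE, adjusted p = 0.9998). *Psat1* (chr19:15904678-15947337, minus strand) has no exon that overlaps one of another gene.

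**Figure D2:**
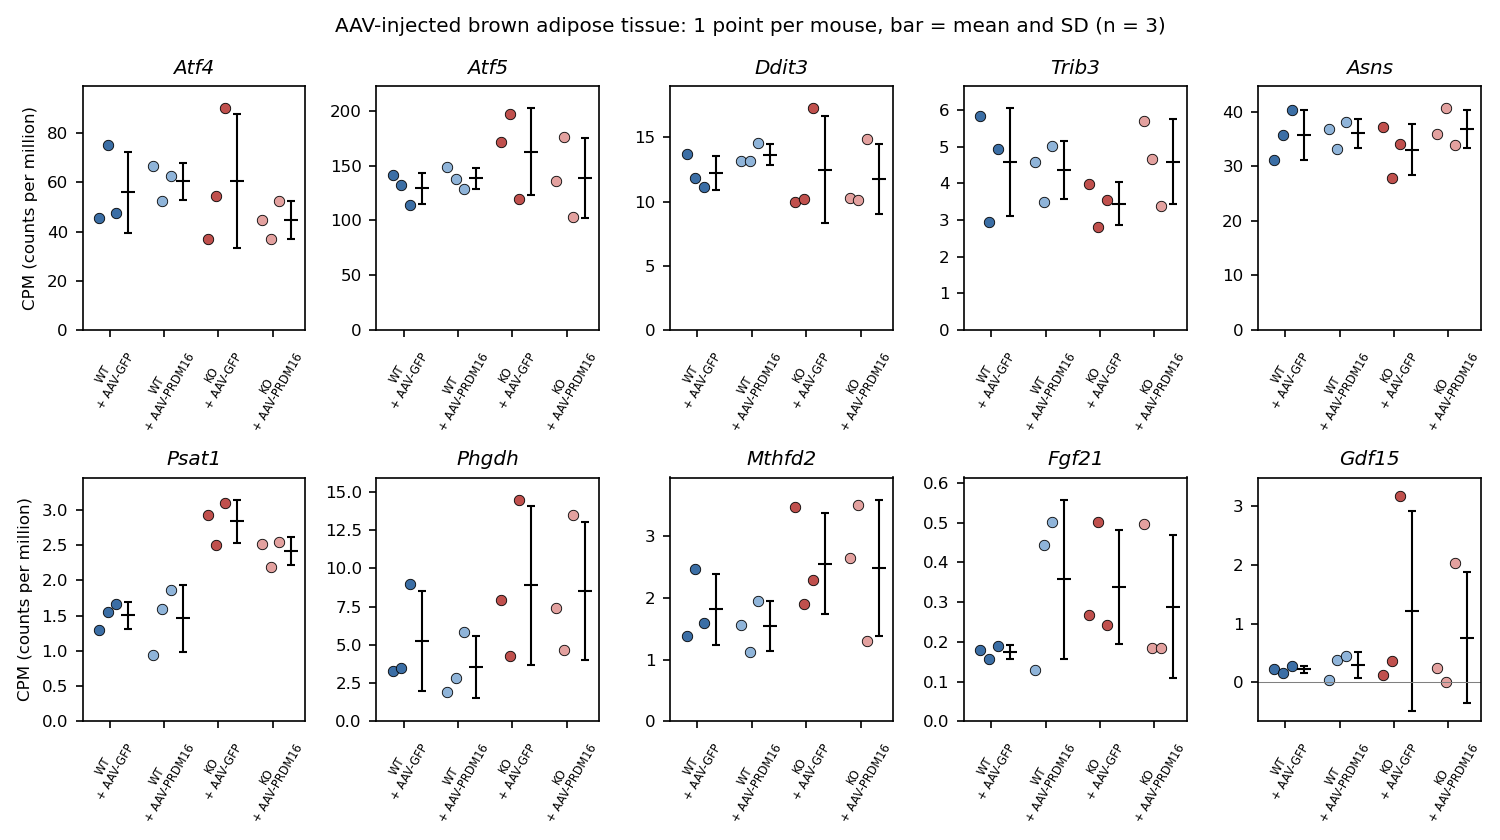
Levels of the 10 genes in BAT of the AAV cohort, with 1 panel per gene, the 4 groups on the horizontal axis (WT in blue, KO in red, AAV-PRDM16 in the lighter shade, 3 mice each) and CPM on the vertical axis. Points are mice, and the bar is the mean with its SD. For *Psat1* the 6 KO mice lie between 2.19 and 3.09 CPM, above the 6 WT mice at 0.936 to 1.86 CPM, and in every other panel the 6 KO and 6 WT mice overlap.

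*Phgdh* and *Mthfd2* had positive fold changes that did not pass in the fit reported. With the replicate number as a block, *Phgdh* was called as well (log2 fold change 1.02, adjusted p = 0.0265 by edgeR), where that fit called 1.82% of all genes. These numbers did not pair the mice, since same-numbered mice of this cohort correlated at only -0.0912 to 0.154. At an unadjusted p under 0.05 in the fit without the block, 3 members were higher in KO, *Psat1*, *Phgdh* and *Mthfd2*. Of all genes, 9.54% were higher and 8.76% lower at that level. *Phgdh* was at 3.26, 3.46 and 9.00 CPM in WT + AAV-GFP and at 1.93, 2.86 and 5.82 CPM in WT + AAV-PRDM16 mice. KO + AAV-GFP mice had 7.91, 4.27 and 14.5 CPM of *Phgdh*, and KO + AAV-PRDM16 mice 7.42, 4.65 and 13.5 CPM. The ranges of the 4 groups overlapped, with replicate 3 the highest of each. Its log2 fold change was 1.01 ± 0.40 (SE, adjusted p = 0.197, exact permutation p = 0.06), and 0.76 ± 0.56 under AAV-GFP and 1.26 ± 0.57 under AAV-PRDM16. *Mthfd2* was at 1.39, 2.47 and 1.59 CPM in WT + AAV-GFP, and at 1.56, 1.13 and 1.95 CPM in WT + AAV-PRDM16 mice. KO + AAV-GFP mice had 3.47, 1.90 and 2.29 CPM of *Mthfd2* and KO + AAV-PRDM16 mice 2.65, 3.50 and 1.30 CPM, so 1 mouse of the latter was lower than 5 of the 6 WT mice. Its log2 fold change was 0.59 ± 0.26 (SE, adjusted p = 0.262, exact permutation p = 0.09).

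Marker genes of other cells also differed by genotype in this cohort: 3 of 6 macrophage markers and 2 of 4 fibroblast markers were higher in KO and 2 of 10 brown adipocyte markers lower, at an adjusted p of at most 0.05 by edgeR. The 6 macrophage markers summed to 31.3 to 57.8 CPM in WT + AAV-GFP, 21.9 to 27.6 in WT + AAV-PRDM16, 67.2 to 179 in KO + AAV-GFP and 43.1 to 50.4 in KO + AAV-PRDM16 mice, with none at 0. The white adipocyte markers summed to 27.8 to 44.0, 11.5 to 60.5, 85.9 to 142 and 51.7 to 253 CPM in the same order of groups, with up to 2 of the 5 at 0. Of the 4 white adipocyte markers tested, 2 were higher and 2 lower in KO averaged over viruses (median log2 fold change 0.06). None of them was called by edgeR (lowest adjusted p = 0.0756). In fits added after seeing the data, the log2 fold change of *Psat1* was 0.55 with the macrophage sum as a covariate (adjusted p = 0.473) and 0.47 with the white adipocyte sum (adjusted p = 0.824). These fits called 0% and 0.0106% of all 18899 genes, where 2.18% were called without a covariate, so the loss of the call was not particular to *Psat1*. The log2 fold change of *Phgdh* was -0.04 and -0.11 in these fits, and that of *Mthfd2* 0.59 and 1.14. The part of these cells in the result was not tested beyond these fits.

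**Figure D3:**
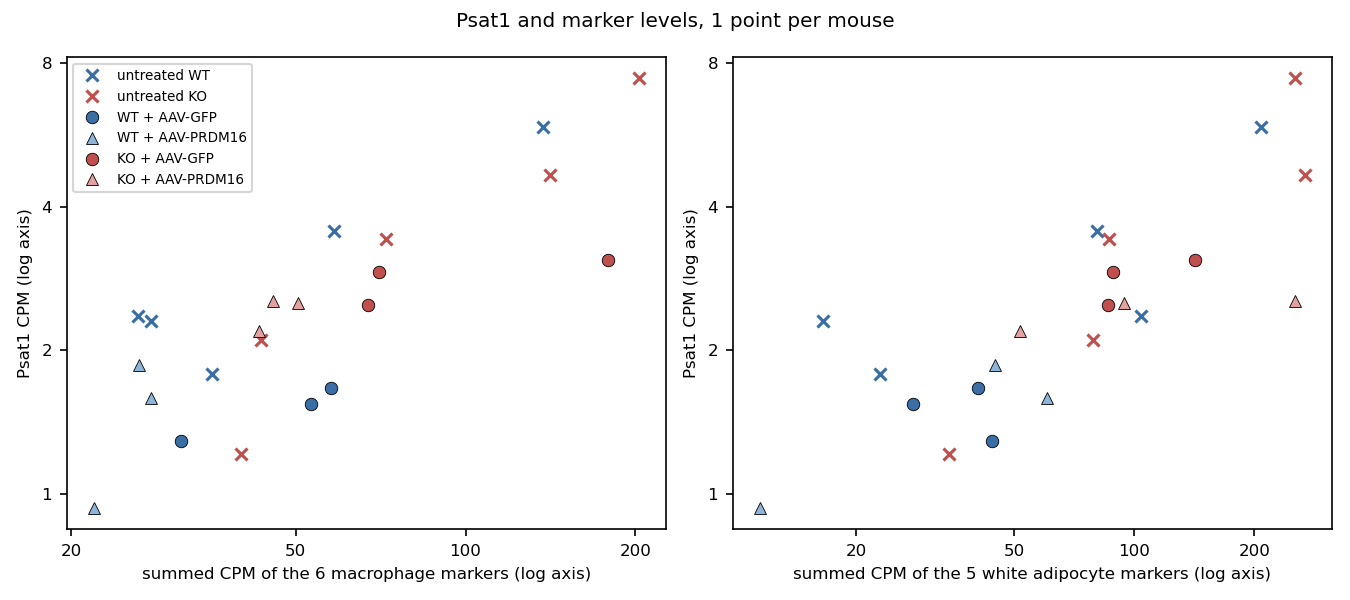
*Psat1* level in CPM on the vertical axis against the summed CPM of the 6 macrophage markers (left) and of the 5 white adipocyte markers (right), all on log axes, with 1 point per mouse. Crosses are untreated mice, circles AAV-GFP and triangles AAV-PRDM16 mice, WT in blue and KO in red. Untreated mice with high marker sums have the highest *Psat1*, up to 7.44 CPM, and in the AAV cohort the KO mice lie higher on *Psat1* and, for the most part, on both sums.

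None of the upstream factors or hormones passed the test between genotypes in the AAV cohort. *Atf4* was at 45.6, 75.1 and 47.4 CPM in WT + AAV-GFP and at 66.8, 52.3 and 62.4 CPM in WT + AAV-PRDM16 mice. KO + AAV-GFP mice had 36.9, 54.4 and 90.2 CPM of *Atf4*, and KO + AAV-PRDM16 mice 44.7, 37.0 and 52.3 CPM. The groups overlapped, and the log2 fold change of -0.16 ± 0.20 (SE, adjusted p = 0.726) had the opposite sign to that in untreated mice. *Atf5* (log2 fold change 0.17 ± 0.14), *Ddit3* (-0.09 ± 0.15), *Trib3* (-0.17 ± 0.19) and *Asns* (-0.04 ± 0.09) had adjusted p from 0.585 to 0.873. Of these, *Asns* had the smallest standard error of the 10 members, with levels between 27.9 and 40.7 CPM in all 12 mice. *Fgf21* ran from 0.129 to 0.502 CPM over the cohort, with a log2 fold change of 0.32 ± 0.42. *Gdf15* was below 0.5 CPM in every mouse but 2, KO + AAV-GFP replicate 3 at 3.17 CPM and KO + AAV-PRDM16 replicate 3 at 2.04 CPM. In KO + AAV-PRDM16 replicate 2 it had no count, which allows up to 0.0278 CPM (3 counts, counting error only). Its log2 fold change was 1.89 ± 0.999 (SE, adjusted p = 0.347), between 0.60 and 2.19 with 1 library left out, and the exact permutation gave p = 0.67.

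**Figure D4:**
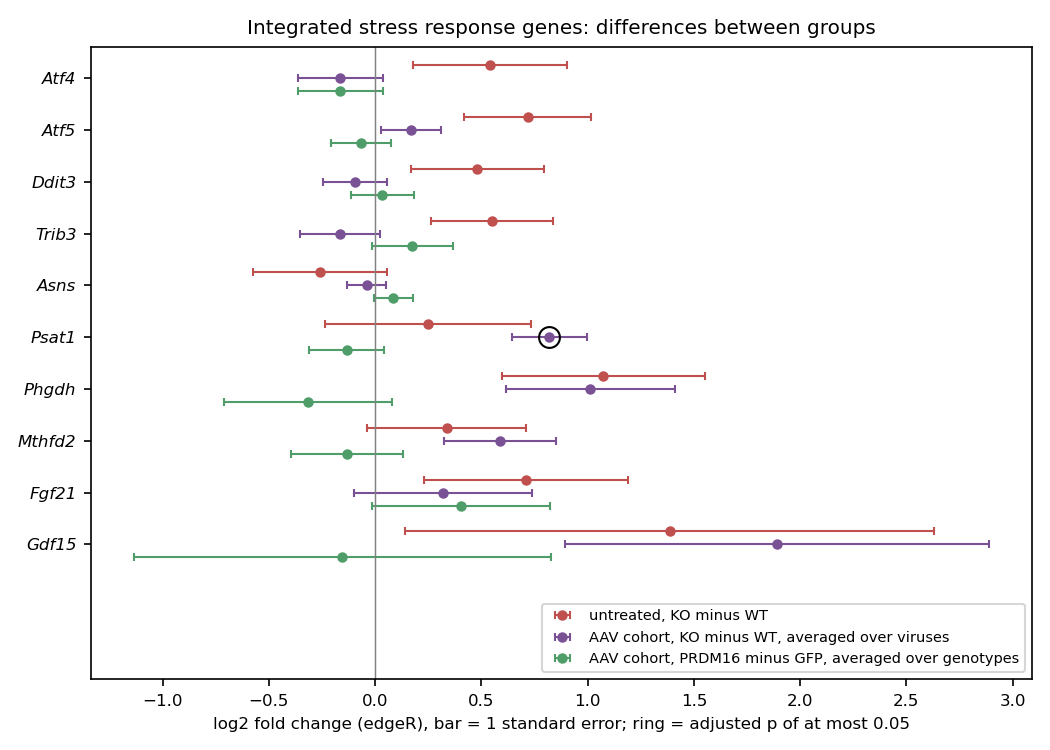
Log2 fold changes from edgeR on the horizontal axis for each of the 10 genes on the vertical axis, for KO against WT in untreated mice (red), KO against WT averaged over viruses (purple) and AAV-PRDM16 against AAV-GFP averaged over genotypes (green). Bars are 1 standard error, and the ring marks the single value with an adjusted p of at most 0.05, *Psat1* at 0.82. *Phgdh* lies near 1 in both genotype comparisons, and the virus comparison lies between -0.32 and 0.40 for all 10 genes.

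No member passed the test between AAV-PRDM16 and AAV-GFP. Averaged over genotypes, the 10 log2 fold changes lay between -0.32 (*Phgdh*) and 0.40 (*Fgf21*), 4 positive and 6 negative, with a median of -0.10. By edgeR 0 members were called and 0 had a p under 0.05, where 0.037% of all genes were called. By DESeq2 0 members were called too, where 2.87% of genes were. *Psat1* was at -0.13 ± 0.18 and *Mthfd2* at -0.13 ± 0.26 (SE), both smaller than the error. Within WT mice and within KO mice, edgeR called 0 members and 0% of all genes. DESeq2 also called 0 members there, and 159 genes (0.81%) within WT and 261 genes (1.22%) within KO mice. The interaction of genotype and virus gave an adjusted p of 0.9998 for each member, again with 0 members and 0% of all genes called by edgeR. Averaged over genotypes, the standard errors ran from 0.09 for *Asns* to 0.98 for *Gdf15*. For the same 2 genes they were 0.13 and 1.41 within WT mice, 0.13 and 1.35 within KO mice, and 0.18 and 1.95 for the interaction. With 3 mice in a group these errors leave room for changes of moderate size.

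Few pairs of members varied together between mice of one group at an adjusted p of at most 0.05. Over the 10 untreated mice, the deviations of log2 CPM from the group means had a Pearson r of 0.85 for *Atf4* with *Ddit3* (Spearman's rho 0.87) and of 0.81 for *Psat1* with *Gdf15* (rho 0.87). Their permutation p of 0.00636 and 0.00549 came to 0.143 after adjustment over the 45 pairs of a cohort, and r was 0.81 and 0.85 without the 2 mice farthest from the median. Over the 12 AAV mice, *Atf5* ran against *Phgdh*, with an r of -0.88 and a rho of -0.90 (permutation p = 0.00087, adjusted p = 0.0391 for r and 0.0594 for rho). That r was -0.81 without the 2 farthest mice. *Atf5* also ran against *Psat1* by rank, with a rho of -0.80 (permutation p = 0.00087, adjusted p = 0.0391), while r was -0.51 (adjusted p = 0.126) and -0.52 without the 2 farthest mice. *Psat1* ran with *Phgdh* at an r of 0.73 and a rho of 0.78 (permutation p = 0.0102, adjusted p = 0.154), and r was 0.91 without the 2 farthest mice. *Atf5* ran against *Gdf15* at an r of -0.87 and a rho of -0.89 (permutation test, adjusted p = 0.171 and 0.0692). *Gdf15* ran with *Ddit3* at an r of 0.78 and with *Phgdh* at 0.72 (permutation test, adjusted p = 0.171 for each). Groups of 3 mice allow few arrangements, so the p of 0.00087 is near the smallest this permutation can give. In each cohort 24 of the 45 pairs had a positive r. The marker sums of other cell types, which also differ between mice of a group, share these libraries, and their part was not tested.

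A wider list of 99 pathway genes was read with the same fits. Of the 97 tested in the AAV cohort, 5 were called between KO and WT averaged over viruses, 1 higher and 4 lower (5.15%, where 2.18% of all genes were called). In the untreated cohort 0 of 98 were called by edgeR. There 18 had an unadjusted p under 0.05, 8 higher and 10 lower, where 4.99% of all genes were higher and 10.9% lower. No gene of the list was called by edgeR in the other 6 comparisons. The median log2 fold change of the list was -0.02 in the AAV and 0.10 in the untreated genotype comparison.

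Among the serine, proline and one-carbon enzymes, *Aldh18a1*, the first enzyme of proline synthesis and like *Psat1* an ATF4 target, rose in KO AAV mice, from a mean of 0.885 to 1.70 CPM (log2 fold change 0.97 ± 0.20, SE, adjusted p = 0.0302). *Shmt1*, the cytosolic enzyme that interconverts serine and glycine, fell from 30.6 to 24.2 CPM (-0.34 ± 0.07, adjusted p = 0.0390). The other 10 enzymes of that list did not pass, with values such as -0.11 ± 0.07 for *Mthfd1* and 0.01 ± 0.15 for *Aldh1l1*. In untreated mice *Aldh18a1* and *Shmt1* were at 0.28 ± 0.46 and -0.02 ± 0.36. The median of the list was -0.07.

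The inputs of the pathway were read in 4 lists. *Ppp1r15b*, the constitutive subunit that brings the phosphatase to eIF2alpha, fell in KO AAV mice from 179 to 137 CPM (log2 fold change -0.40 ± 0.09, SE, adjusted p = 0.0468), and in untreated mice it was at -0.63 ± 0.25 (adjusted p = 0.305). The stress-induced subunit gene *Ppp1r15a* was at -0.10 ± 0.14 and at 0.70 ± 0.40. *Phb* and *Phb2*, which encode the inner-membrane prohibitins and stand in the list of the mitochondrial stress relay, fell by 0.29 and 0.34 on the log2 scale in KO AAV mice (adjusted p = 0.0342 and 0.0253). In untreated KO mice both had positive values, 0.47 ± 0.30 and 0.40 ± 0.33. None of the 4 eIF2alpha kinase genes passed in any comparison. In untreated mice they were all negative, at -1.17 ± 0.40 for *Eif2ak2* (PKR), -1.01 ± 0.35 for *Eif2ak4* (GCN2), -0.81 ± 0.31 for *Eif2ak3* (PERK) and -0.39 ± 0.23 for *Eif2ak1* (HRI), with adjusted p from 0.305 to 0.374. In the AAV cohort the same genes lay between -0.22 and 0.17. The 8 genes for eIF2 and eIF2B subunits did not pass in either, with *Eif2b4* nearest at -0.24 ± 0.07 in AAV mice (adjusted p = 0.0825).

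The remaining targets and neighbouring programs held no called gene. Untreated values were large but wide for *Chac1*, which degrades glutathione (1.72 ± 0.68, adjusted p = 0.305), for *Cebpd* (1.58 ± 0.68, adjusted p = 0.308) and for *Eif4ebp1*, the translation repressor 4E-BP1 (0.85 ± 0.35, adjusted p = 0.305). In KO AAV mice they were 0.34 ± 0.35, 0.11 ± 0.22 and -0.33 ± 0.10. Of the amino acid transporters, *Slc1a5* was at 0.49 ± 0.26 and 0.32 ± 0.09 (adjusted p = 0.346 and 0.0774). The aminoacyl-tRNA synthetases, which are broad ATF4 targets, stayed between -0.15 and 0.13 for the named *Mars*, *Eprs*, *Lars*, *Gars* and *Aars* in AAV mice. In the arm of the unfolded protein response run by ATF6 and XBP1, the chaperone gene *Hspa5* was at -0.47 ± 0.30 in untreated and 0.10 ± 0.12 in AAV mice. The mitochondrial chaperone genes *Hspd1* and *Hspa9* were at -0.81 ± 0.35 and -0.73 ± 0.33 in untreated mice and at -0.06 ± 0.08 and -0.07 ± 0.08 in AAV mice. Of the 7 mitochondrial chaperone and protease genes, 6 had negative values in KO AAV mice, with a median of -0.22. By edgeR 4 of the 7 were lower at an unadjusted p under 0.05, where 8.76% of all genes were (lowest adjusted p = 0.0587).

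**Figure D5:**
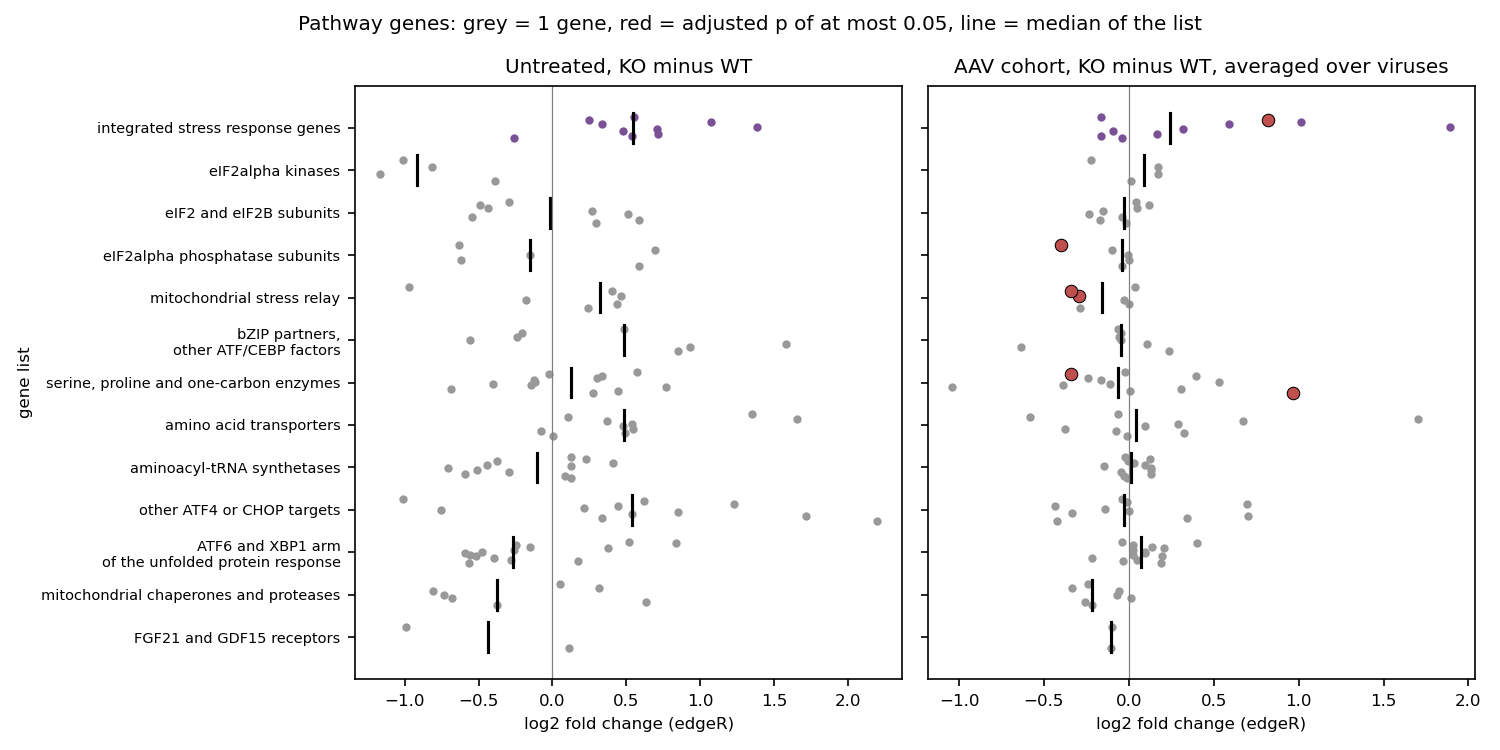
Log2 fold change of KO against WT from edgeR on the horizontal axis, in untreated mice (left) and averaged over viruses in AAV mice (right), for the 10 genes (purple) and 12 lists of other pathway genes (grey) on the vertical axis. Each point is a gene, red points have an adjusted p of at most 0.05, and the black line is the list's median. On the left no point is red and the points spread more widely, and on the right *Psat1* and 5 other genes are red.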

How the data were processed

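The authors made 1 mRNA library from the BAT of each mouse and sequenced it on Illumina machines. Per cohort they deposited 1 file of counts, whole numbers per Ensembl gene with no normalization. The submitters' processing notes name bcl2fastq 2.20, Trimmomatic 0.36, HISAT2 and GRCm38.p6. The counting tool, its annotation, and the handling of strand and duplicates are not given in the sources used here. Groups came from the sample labels. Gene symbols and coordinates came from GENCODE M21 (55227 of 55487 identifiers matched). Where an identifier shared a symbol, the one with the longer exons was used.

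In R 4.3.3, genes were kept by filterByExpr of edgeR 4.0.16 (17869 untreated, 18899 AAV), scaled by TMM and compared by its two-sided quasi-likelihood test. P-values were adjusted by Benjamini-Hochberg over all genes tested. The AAV fit used all 12 libraries. Single genes were also compared by exact permutation over mice on log2 CPM with a prior count of 2. Correlations used 100000 permutations within groups. Scripts were tested on simulated data. Counts of replicate libraries differed beyond sampling noise (lowest median chi-square per gene 5.26), so each mouse counted once.

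The 10 genes and the wider lists were chosen with earlier results of these data known. Of each wider list the text may name up to 3 genes with the highest mean CPM in a cohort, the genes with the highest and lowest fold change in the untreated, genotype and virus comparisons, and every gene at an adjusted p of at most 0.05. The alternatives tried included RLE scaling, DESeq2 1.42.0, keeping all genes, limma-voom (limma 3.58.1) with quality weights, the replicate number as a block, each library left out, WT mice 1 and 2 left out, a Y-linked covariate, only the 2 groups compared and other prior counts. Covariates from marker sums were added after seeing the data.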

Additional observations from a re-analysis of the deposited data

Results flagged for a closer look

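*Gdf15* in untreated WT mouse 4, at 7.81 CPM, lay far from the other 4 WT mice, which had 0.0248 to 1.47 CPM. Its distance to the nearest of them was 0.814 of the group's range, above the critical value of 0.71 for 5 samples. The 10 genes were looked at in both untreated groups, 20 sets of 5 mice, and about 1 in 20 such sets is marked by chance. The same mouse had 137 CPM of macrophage, 207 CPM of white adipocyte and 561 CPM of fibroblast markers, the highest sums among the WT mice.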

How the results depend on the processing

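Depth limited *Fgf21*, which had as few as 11 counts in a library. *Gdf15* ran from 0 to 457 counts in AAV and from 4 to 1412 counts in untreated libraries. Both low counts and the spread between mice limited it. The wide spread of the untreated mice limited every genotype value in that cohort. The count of members called between KO and WT averaged over viruses, 1 in the fit reported, was 0 with no filter on low counts and 0 with either the macrophage or the white adipocyte covariate, and 0 to 1 with a library left out. Of all genes, 0.852% were called with no filter, 0% with the macrophage covariate and 0.0106% with the white adipocyte covariate. With a library left out, 0.455% to 3.02% of all genes were called. Under AAV-GFP the count of members was 1 by DESeq2 in place of 0, where DESeq2 called 242 genes and edgeR 10. *Psat1* averaged over viruses had an adjusted p of 0.0367 with RLE scaling, 0.0207 with limma-voom and 0.0557 with no filter. The replicate numbers did not pair the mice, since same-numbered mice correlated at -0.292 to 0.111 in the untreated and -0.0912 to 0.154 in the AAV cohort. With the number as a replicate block, 2 members were called between KO and WT averaged over viruses, *Psat1* (adjusted p = 0.0435) and *Phgdh* (log2 fold change 1.02, adjusted p = 0.0265), where 1.82% of all genes were called against 2.18% without the block, and counts in the other 7 comparisons stayed at 0. The counts of the untreated, AAV-PRDM16, virus and interaction comparisons were 0 under every alternative run.

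For the log2 fold changes that changed sign, the cause was not tested. The marker covariates were chosen after seeing the data. In untreated mice *Psat1* was at -0.30 with limma-voom and at -0.51, -0.34 and -0.11 with the macrophage, white adipocyte and muscle covariates, and *Gdf15* at -0.069 with the macrophage covariate. Averaged over viruses, *Gdf15* was at -0.20 with limma-voom, -0.63 with the macrophage and -2.76 with the white adipocyte covariate. *Phgdh* was at -0.044 and -0.11 in those 2 covariate fits, and *Asns* at 0.057 and *Fgf21* at -0.15 with the white adipocyte covariate. For the virus comparison *Mthfd2* was at 0.043 with limma-voom. With a library left out, the ranges that crossed 0 were -0.16 to 0.59 for *Psat1* in untreated mice, and -0.087 to 0.015 for *Asns* and -0.0043 to 0.48 for *Fgf21* averaged over viruses. In the virus comparison they were -0.29 to 0.036 for *Atf4*, -0.17 to 0.020 for *Atf5*, -0.067 to 0.19 for *Ddit3*, -0.60 to 0.0045 for *Phgdh*, -0.30 to 0.018 for *Mthfd2* and -1.45 to 1.01 for *Gdf15*. Direction and side of the threshold were kept by 383 of 412 member values with a library left out and by 238 of 256 under the other settings.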

Other observations

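The receptors of the hormones were also measured. *Klb*, the co-receptor of FGF21, was at a mean of 16.8 CPM in untreated WT and 8.44 CPM in KO mice (log2 fold change -0.99 ± 0.52, SE, adjusted p = 0.343), and at 36.3 and 33.5 CPM in the WT and KO mice of the AAV cohort (-0.10 ± 0.20). *Fgfr1* was at 0.11 ± 0.20 and -0.11 ± 0.11 in the same comparisons. *Gfral*, the receptor of GDF15, did not pass the filter on low counts in either cohort.

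With AAV-PRDM16, the pathway gene nearest to the threshold was *Slc7a11*, the cystine transporter, at a mean of 0.0498 CPM against 0.396 CPM with AAV-GFP (log2 fold change -2.87 ± 0.62, SE, adjusted p = 0.0632). *Slc7a11* did not pass, and its mean with AAV-PRDM16 was near the level of 3 counts, 0.0203 to 0.0501 CPM in these libraries. The T and B lymphocyte marker sum was 0.664 to 1.60 CPM in AAV-PRDM16 and 1.25 to 18.3 CPM in AAV-GFP mice. The macrophage marker sum was also lower with AAV-PRDM16, at 21.9 to 27.6 against 31.3 to 57.8 CPM in WT mice. In KO mice it was 43.1 to 50.4 against 67.2 to 179 CPM. The part of these cells in the *Slc7a11* value was not tested.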
